A study of Homo sapiens with 8 samples.

Results

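The genes described here are 10 cytokines and chemokines of inflammation: the CXC chemokines CXCL1, CXCL2, CXCL3, CXCL5 and CXCL8, the CC chemokine CCL20, the interleukin-6 family cytokines IL6 and LIF, and the interleukin-1 cytokines IL1A and IL1B. They were taken by symbol from a list drawn up with earlier results of these data known, and all 10 were found among the 58870 gene rows of the table. RNA sequencing compared control cells of Panc 10.05, a human cell line established from pancreatic ductal adenocarcinoma (4 libraries), with Panc 10.05 cells that overexpress ELAPOR1 (4 libraries), a gene for an endosomal and lysosomal protein linked to autophagy. The labels name no treatment, time or other allele, do not say how ELAPOR1 was overexpressed or whether the lines were clones or pools, and do not say whether replicates were separate cultures, so p-values measure the spread between these libraries only. Of the 10 genes, CXCL8 rose 3.84-fold and LIF rose 1.17-fold in the ELAPOR1 libraries, CXCL2 and CXCL5 did not pass the test, and 6 genes had too few reads for a test.

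CXCL1, CXCL2, CXCL3, CXCL5 and CXCL8 are secreted ligands of the receptor CXCR2, and are best known for drawing neutrophils into tissue. CXCL8 also acts through the receptor CXCR1. CCL20 acts through CCR6 on lymphocytes and dendritic cells. IL6 and LIF signal through receptor complexes that share the subunit gp130 (IL6ST) and act on STAT3, and in pancreatic tumours both are known as messengers between cancer cells and stroma. IL1A and IL1B signal through IL1R1 with IL1RAP and the adaptor MYD88 to NF-kappaB, a family of transcription factors that switches on many of these genes through kappaB sites in their promoters. Transcripts of several of these cytokines are short-lived and are removed by RNA-binding proteins.

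The 5 CXC genes lie in a 358.8 kb stretch of chromosome 4 (GENCODE release 29, GRCh38). CXCL8 is at chr4:73740506-73743716 on the plus strand and CXCL1 at chr4:73869393-73871242 on the plus strand. CXCL5 (chr4:73995642-73998779), CXCL3 (chr4:74036589-74038807) and CXCL2 (chr4:74097035-74099293) are on the minus strand. Between them lie CXCL6, PF4V1, PF4 and PPBP, which had 0 counts in every library. The promoter sequences from RefSeq (GRCh38.p14) are shown because the 5 CXC promoters share a kappaB-like site at nearly the same distance from the start, and CXCL8 was the gene of the 5 that was called. The longest run of bases common to all 5 in the 250 bases before the start was GGAATTTCC (9 bases), which is in 0.461% of 35116 RefSeq promoter windows of 300 bases, either strand. It was picked after the sequences had been read. Each line below gives the site with 10 bases on each side, 5′ to 3′ on the gene's strand, with capitals for the kappaB consensus on either strand or for the shared run.

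CXCL1: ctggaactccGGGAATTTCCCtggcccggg

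CXCL2: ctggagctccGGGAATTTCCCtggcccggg

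CXCL3: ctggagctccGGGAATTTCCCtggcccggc

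CXCL5: catgagttcaGGGAATTTCCCcagcatccc

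CXCL8: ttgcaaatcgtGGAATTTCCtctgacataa

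IL6: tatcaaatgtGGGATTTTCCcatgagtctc

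These stretches are chr4:73869304-73869333 (plus) for CXCL1, chr4:74099254-74099283 (minus) for CXCL2, chr4:74038749-74038778 (minus) for CXCL3, chr4:73998749-73998778 (minus) for CXCL5, chr4:73740467-73740496 (plus) for CXCL8 and chr7:22727117-22727146 (plus) for IL6. In release 29 the stretches of CXCL2, CXCL3 and CXCL5 fall in the annotated first exon, which there begins further upstream than the RefSeq start, and those of CXCL1, CXCL8 and IL6 fall in no exon of the gene. The 10-base site was GGGAATTTCC at -79 to -70 from the RefSeq start in CXCL1 and CXCL3, at -78 to -69 in CXCL2 and at -91 to -82 in CXCL5. In CXCL8 it was TGGAATTTCC at -92 to -83, which differs from the CXCL1 site by G1T, counted from 1 at the site's 5′ end. The promoters of CXCL1 and CXCL3 were alike beyond the site, with 93.8% of 80 positions (-140 to -61) identical without gaps. CXCL1 gave 41.2% with CXCL2 and 23.8% with CXCL8. These lower values do not measure likeness, since the site lies at another distance from the start and the positions are out of register.

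The kappaB consensus (GGG, a purine, any base, A or T, a pair of pyrimidines, CC) was searched on both strands of the 300-base windows, and the AP-1 motif TGANTCA likewise. Of the 9 genes with a RefSeq window (LIF was not among them), 6 held the kappaB consensus (CXCL1, CXCL2, CXCL3, CXCL5, CCL20 and IL6), which 5.91% of all windows hold. In the 4 CXC promoters with the consensus it matched both strands at positions overlapping by all but 1 base, hence 11 capitals. AP-1 was found in CXCL8, at -137 to -131, and in IL1A, and in 7.71% of all windows. The CXCL8 window is shown from -140 to -64 (chr4:73740429-73740505, plus, in no exon), with the AP-1 motif and the shared run in capitals. Such a match describes letters and is no evidence of binding.

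CXCL8: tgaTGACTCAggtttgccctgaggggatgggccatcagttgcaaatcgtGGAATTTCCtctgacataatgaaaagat

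**Figure D1:**
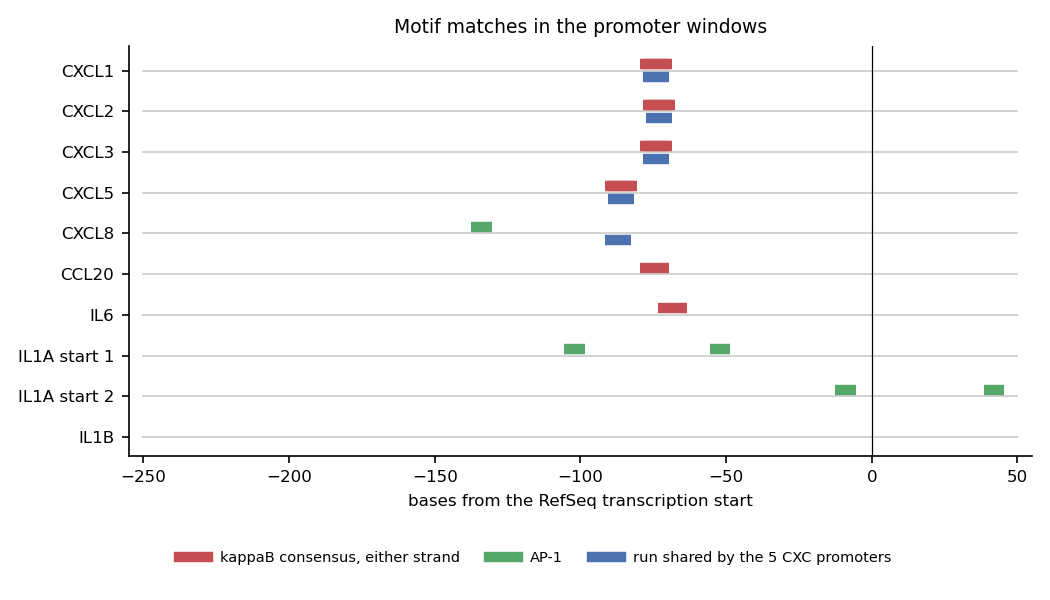
Matches to 3 motifs in the RefSeq promoter windows of 9 cytokine genes (IL1A has a pair of starts), drawn by distance in bases from the transcription start. The run shared by the 5 CXC promoters lies between -91 and -69 in each of them, and CXCL8 holds it without the full kappaB consensus and with an AP-1 match further upstream.

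The libraries held 13765509 to 18128757 counts each, so 1 read was worth 0.0554 to 0.0720 CPM (counts per 1e+06 counts of the library, scaled by TMM). ELAPOR1, listed under its older symbol KIAA1324, had 1, 1, 4 and 4 counts in the control libraries and 7006, 6422, 5910 and 7368 in the ELAPOR1 libraries, a log2 fold change of 11.43 (standard error 0.0856, edgeR adjusted p = 3.5e-43), as the labels of all 8 libraries say. Of 13860 genes tested, 44.7% were called at an adjusted p under 0.05, 22.6% higher and 22.1% lower, and 39.2% had CPM ranges that did not overlap between the groups, so calls were common in this comparison. With total count scaling in place of TMM, 3490 genes were called higher and 2736 lower, against 3127 and 3066. The 7 epithelial markers were all tested and summed to 12008 to 13280 CPM in control and 11236 to 11579 CPM in ELAPOR1 libraries. The summed CPM of the myeloid and lymphoid markers was 89.4 to 96.4 in control and 81.1 to 88.0 in ELAPOR1 libraries, nearly all of it CD68, with FCGR3A and CD3E at 0. The 6 fibroblast markers summed to 2.95 to 4.32 and 2.71 to 3.19 CPM, with COL1A2, DCN and LUM at 0, and the 4 endothelial markers to 1.62 to 2.13 and 0.576 to 0.998 CPM, with CDH5 at 0. The part of these markers in the results was not tested.

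Per kilobase of exon, LIF was the most abundant of the 10 in control cells, at 14.7 ± 0.445 CPM per kb (SD, n = 4). CXCL5 followed at 2.41 ± 0.270 and CXCL2 at 1.91 ± 0.144 CPM per kb. CXCL8 (0.417 ± 0.147) and CXCL1 (0.416 ± 0.134) did not differ beyond their spread in control cells. CXCL3 stood at 0.180 ± 0.0546, IL1A at 0.136 ± 0.136, IL1B at 0.106 ± 0.111 and IL6 at 0.0703 ± 0.0478 CPM per kb, and of these 4 each but the lowest lay within the spread of the next below it. CCL20 was lowest, at 0.00956 ± 0.0191 CPM per kb. In ELAPOR1 cells the order began in the same way, with LIF at 17.2 ± 0.385, CXCL5 at 2.95 ± 0.331 and CXCL2 at 1.88 ± 0.513 CPM per kb. CXCL8 then stood at 1.60 ± 0.110 CPM per kb, within the spread of CXCL2 and above CXCL1 at 0.409 ± 0.275. Below them came CXCL3 at 0.161 ± 0.0569 and IL6 at 0.143 ± 0.0703, then IL1A (0.0721 ± 0.0846), IL1B (0.0716 ± 0.0511) and CCL20 (0.0695 ± 0.0169), which did not differ beyond their spread. The summed level of the 10 genes was 67.9 to 73.3 CPM in control and 81.5 to 87.0 CPM in ELAPOR1 libraries, most of it LIF.

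**Figure D2:**
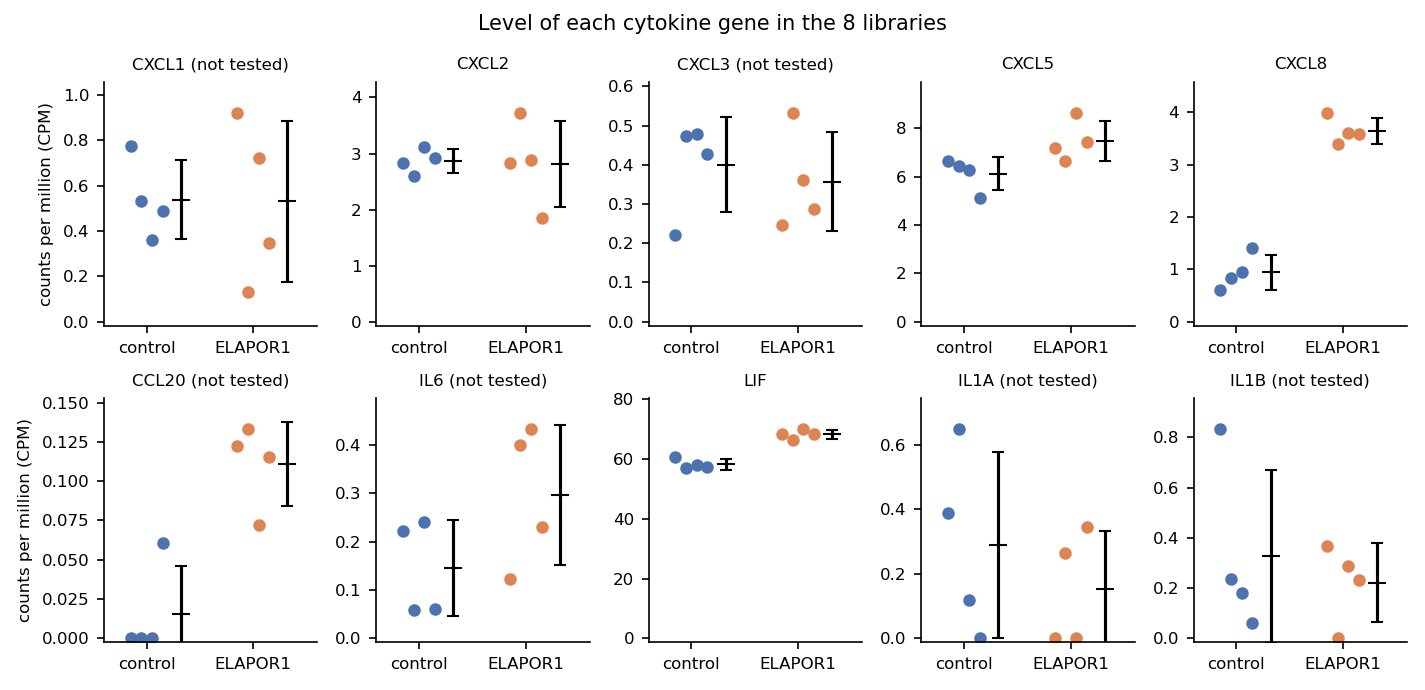
CPM of each of the 10 genes in the 4 control (blue) and 4 ELAPOR1 (orange) libraries on linear axes that start at 0, with the mean and SD in black (bars that reach below 0 are cut off there). CXCL8 and LIF are separate between the groups, CXCL5 separates by a hair, and IL1A and IL1B scatter within each group.

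CXCL8 (ENSG00000169429.11), also called interleukin-8, is the best-known neutrophil attractant of the family. It had 11, 14, 16 and 23 counts in control replicates 1 to 4 and 65, 51, 50 and 62 in ELAPOR1 replicates 1 to 4. In CPM these were 0.610, 0.826, 0.959 and 1.40 in control and 3.99, 3.39, 3.60 and 3.58 in ELAPOR1 libraries. The lowest ELAPOR1 library was above the highest control library, and the ELAPOR1 libraries lay close together. The control libraries were less even and rose in order from replicate 1 to 4. Over all tested genes, control replicates 1 and 4 were the furthest apart of the pairs within a group. Their chi-square against counting error was 6.11 per gene, and that of pairs of ELAPOR1 libraries was 1.93 to 2.19. The means were 0.949 ± 0.334 and 3.64 ± 0.251 CPM (SD, n = 4 each), which gives a log2 fold change of 1.94 (standard error 0.244, 95% interval 1.44 to 2.44), or 3.84-fold (2.72 to 5.42), at an adjusted p of 5.0e-08 in edgeR's quasi-likelihood test. Of the 13860 tested genes, 42 had a larger rise, ELAPOR1 among them. In GENCODE release 29 CXCL8 shares no 50-base stretch of transcript with another gene and overlaps none. Whether its change differed from those of the other CXC genes was not tested. It is a low transcript even after the rise, and in bulk libraries more cells with the transcript and more transcript per cell cannot be told apart.

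CXCL5 (ENSG00000163735.7), a CXCR2 ligand made by epithelial cells, had 120, 109, 105 and 84 counts in control and 117, 100, 120 and 129 in ELAPOR1 libraries. In CPM these were 6.65, 6.43, 6.29 and 5.12 in control and 7.18, 6.65, 8.64 and 7.44 in ELAPOR1 libraries. The groups met at 6.65 CPM without crossing. The means were 6.12 ± 0.685 and 7.48 ± 0.840 CPM, a log2 fold change of 0.28 (standard error 0.127, 95% interval 0.025 to 0.54) that did not pass at an edgeR adjusted p of 0.0679. It was called under 2 of 18 alternatives, with an edgeR adjusted p of 0.0497 with total count scaling and 0.0483 without ELAPOR1 replicate 2. Leaving out other libraries moved it further from the threshold, to 0.216 without control replicate 4 and 0.219 without ELAPOR1 replicate 3. Of its 50-base transcript windows, 1.12% also occur in GLYR1.

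CXCL2 (ENSG00000081041.9), a chemokine closely related to CXCL1 and CXCL3, had 51, 44, 52 and 48 counts in control and 46, 56, 40 and 32 in ELAPOR1 libraries. Its CPM ran from 2.60 to 3.12 in control and from 1.85 to 3.73 in ELAPOR1 libraries, so the ELAPOR1 libraries lay both above and below all of the control. The means were 2.87 ± 0.216 and 2.82 ± 0.769 CPM, with a log2 fold change of -0.033 (standard error 0.206, 95% interval -0.45 to 0.39, edgeR adjusted p = 0.913). The interval holds no change as well as changes of up to 1.31-fold in the upward direction. CXCL2 lay on the same side of the test under each alternative run, but its sign turned without control replicate 3 (0.0089) and without ELAPOR1 replicate 4 (0.13).

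CXCL1 (ENSG00000163739.4) and CXCL3 (ENSG00000163734.4) were left out by the filter, which asked for about 0.599 CPM in 4 libraries. CXCL1 had 14, 9, 6 and 8 counts in control and 15, 2, 10 and 6 in ELAPOR1 libraries, 37 against 33 in all. The ratio of its summed CPM, ELAPOR1 over control, was 0.971 (exact 95% interval 0.588 to 1.60, which covers counting error only, as do all such intervals here). CXCL3 had 4, 8, 8 and 7 counts in control and 4, 8, 5 and 5 in ELAPOR1 libraries, with a ratio of 0.887 (0.481 to 1.62). Neither gene showed a difference at this depth. The ELAPOR1 libraries differed among themselves by more than counting error in CXCL1 (chi-square per degree of freedom 3.75), so its interval is too narrow. The transcripts of the 3 genes are partly alike: 12.5% of the 50-base windows of CXCL2, 6.01% of those of CXCL3 and 4.81% of those of CXCL1 occur in another of the 3. A read from such a window could fit more than 1 of these genes. All counts of the 3 genes were whole numbers, so the values show no sign of reads shared out between them. With their counts summed into a single feature the level was 3.81 ± 0.149 CPM in control and 3.71 ± 0.840 CPM in ELAPOR1 libraries, a log2 fold change of -0.046 (standard error 0.178, 95% interval -0.41 to 0.32, edgeR adjusted p = 0.860).

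**Figure D3:**
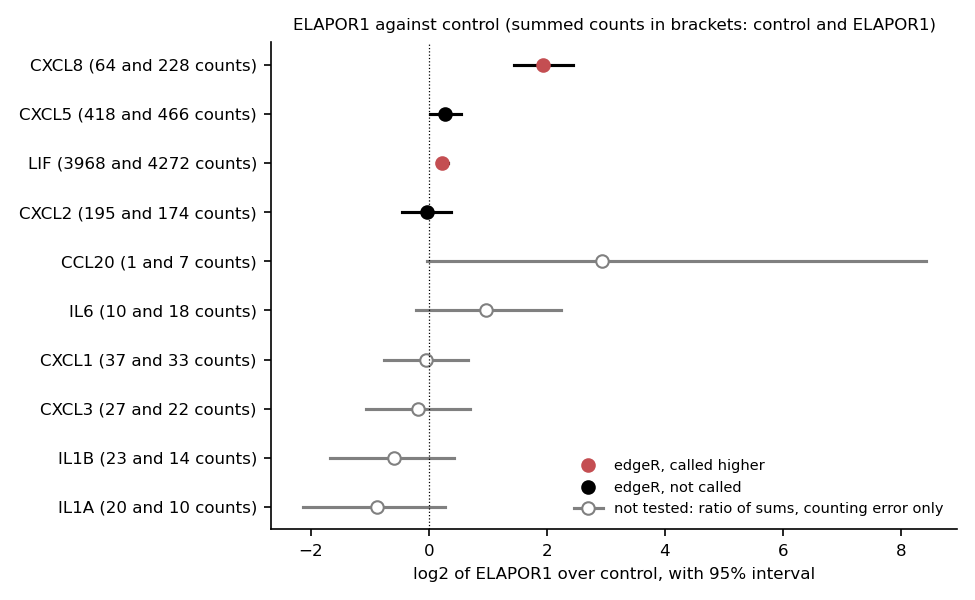
Log2 of ELAPOR1 over control for each of the 10 genes with its 95% interval, from edgeR for the 4 tested genes (filled) and from the ratio of summed CPM for the 6 others (open, counting error only). CXCL8 at 1.94 and LIF at 0.23 were called higher, and the interval of CCL20, from 1 and 7 counts, is the widest.

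CCL20 (ENSG00000115009.13, chr2:227805739-227817564, plus), the ligand of CCR6, was at the edge of detection. It had 0, 0, 0 and 1 counts in control and 2, 2, 1 and 2 in ELAPOR1 libraries. The CPM ranges did not overlap, but by single reads. The ratio of summed CPM was 7.62 with an exact 95% interval of 0.979 to 343, and a fit with no filter on low counts gave an edgeR adjusted p of 0.224.

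LIF (ENSG00000128342.5, chr22:30240447-30246851, minus) keeps mouse stem cells undifferentiated and in pancreatic tumours acts on STAT3 in cancer cells. It had 1097, 964, 966 and 941 counts in control and 1116, 996, 972 and 1188 in ELAPOR1 libraries. In CPM these were 60.8, 56.9, 57.9 and 57.4 in control and 68.5, 66.3, 69.97 and 68.5 in ELAPOR1 libraries. The groups did not overlap, and both were tight. The means were 58.2 ± 1.77 and 68.3 ± 1.53 CPM, a log2 fold change of 0.23 (standard error 0.0443, 95% interval 0.14 to 0.32, edgeR adjusted p = 6.3e-05), or 1.17-fold (1.10 to 1.25). The rise was small: 2575 tested genes had a larger one, and tested against a 1.5-fold change LIF had an adjusted p of 1. LIF overlaps LIF-AS1 and AC004264.1 on the opposite strand, which had at most 1 and 9 counts in a library.

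IL6 (ENSG00000136244.12, chr7:22725884-22732002, plus), the cytokine that drives the acute-phase response, had 4, 1, 4 and 1 counts in control and 2, 6, 6 and 4 in ELAPOR1 libraries. The ratio of summed CPM was 1.96 (exact 95% interval 0.857 to 4.75), and the fit with no filter gave an edgeR adjusted p of 0.443. At these 10 and 18 counts no difference was detectable. IL6 overlaps STEAP1B and AC073072.1 on the opposite strand, which had at most 1 count in a library.

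IL1A (ENSG00000115008.5, chr2:112773915-112784590, minus), an interleukin-1 that is active as made and is released from damaged epithelium, had 7, 11, 2 and 0 counts in control and 0, 4, 0 and 6 in ELAPOR1 libraries. Its neighbour IL1B (ENSG00000125538.11, chr2:112829751-112836903, minus), which has to be cut to act, classically by caspase-1, had 15, 4, 3 and 1 counts in control and 6, 0, 4 and 4 in ELAPOR1 libraries. The ratio of summed CPM was 0.544 (exact 95% interval 0.227 to 1.22) for IL1A and 0.662 (0.315 to 1.34) for IL1B. Control libraries differed among themselves by more than counting error in both genes, with a chi-square per degree of freedom of 4.79 for IL1A and 6.16 for IL1B, so these intervals are too narrow. Control replicate 1 alone held 15 of the 23 control counts of IL1B, and without it the ratio was 1.40. The ratio of IL1A was 0.908 without control replicate 2 and 0.301 without ELAPOR1 replicate 4. No direction can be given for either gene.

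Of the 10 genes, 4 were thus tested and 2 called, both higher, beside 44.7% of all tested genes called and 22.6% called higher. The median log2 fold change of the 4 was 0.26, beside 0.00087 over all tested genes. The set held a single large change, that of CXCL8, among genes that were near their control level or too low to test.

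**Figure D4:**
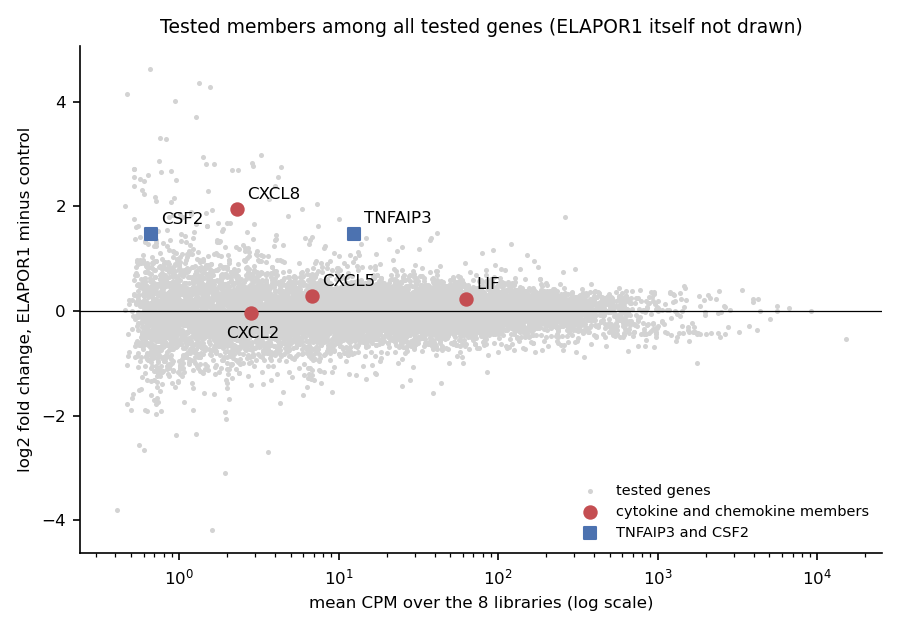
Log2 fold change, ELAPOR1 minus control, against mean CPM over the 8 libraries (log axis) for all tested genes except ELAPOR1 (grey), with CXCL2, CXCL5, CXCL8 and LIF (red) and TNFAIP3 and CSF2 (blue squares). CXCL8 at 1.94 lies well above most genes of its level, and the other 3 red genes lie within the bulk of the genes. TNFAIP3 and CSF2 had the largest rises of the named genes around the cytokines. Named genes of their lists that fell, CEBPB (-0.54) and CSF1 (-0.78), are not marked.

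The genes whose pattern was most like that of CXCL8 over the 8 libraries were sought among tested genes of at least 5 CPM, by the root mean square difference of log2(CPM + 1) after subtracting the control mean. They were TAGLN2 (difference 0.131), an actin-binding protein at 71.2 ± 2.50 CPM in control and 171.5 ± 5.52 CPM in ELAPOR1 libraries, EEF1A2 (0.140), a translation elongation factor at 21.1 ± 1.51 and 53.7 ± 1.03 CPM, and NEGR1 (0.157), a cell adhesion molecule at 3.43 ± 0.274 and 8.97 ± 0.587 CPM. Their log2 fold changes were 1.27, 1.35 and 1.39, below the 1.94 of CXCL8. CXCL8 itself lies under 5 CPM, where the 1 added before the log shrinks a change more. These genes are given as a description with no test, since the choice by likeness to CXCL8 in the same libraries fixed a rise.

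The receptors of the chemokines were at or near 0 in these cells. None of 22 chemokine receptor genes passed the filter, the largest count in any library was 5, and 10 were at 0 throughout. CXCR2 and the decoy receptor ACKR1 had 0 counts in every library. CXCR1 had 0 counts in control and 2 in ELAPOR1 libraries in all, and CCR6 had 0 and 4.

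Few other chemokines were expressed. Of 12 other CXC chemokines 9 were at 0 in every library and 1 was tested, CXCL16, a membrane-bound chemokine, which rose from 27.6 ± 1.07 to 33.7 ± 1.40 CPM (log2 fold change 0.28, standard error 0.0605, edgeR adjusted p = 2.2e-04). Of 21 CC, C and CX3C chemokines 12 were at 0 in every library and 2 were tested. CCL28, a chemokine of mucosal epithelium, was called higher, from 12.9 ± 1.12 to 15.1 ± 1.54 CPM (log2 fold change 0.22, edgeR adjusted p = 0.0445), a call lost under 13 of 18 alternatives, among them leaving out control replicate 1, 2 or 3 or ELAPOR1 replicate 2, 3 or 4 (adjusted p 0.0503 to 0.191).

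Receptors of the interleukin-1 and interleukin-6 families were present, and most that serve the 10 cytokines did not pass the test. IL6ST, the gp130 subunit shared by the receptors of IL6 and LIF, rose from 166 ± 7.49 to 188 ± 3.95 CPM (log2 fold change 0.18, edgeR adjusted p = 6.7e-05). IL6R had 18.3 ± 1.91 and 19.4 ± 1.83 CPM (log2 fold change 0.081, edgeR adjusted p = 0.456), and LIFR had 19.7 ± 2.26 and 17.3 ± 0.553 CPM (-0.19, adjusted p = 0.0599, and 0.0071 without control replicate 4). IL1R1, the signalling receptor of IL1A and IL1B, had 1.93 ± 0.448 and 2.28 ± 0.284 CPM (0.23, edgeR adjusted p = 0.448). Its partner IL1RAP had 21.5 ± 3.15 and 21.0 ± 1.53 CPM (-0.029, adjusted p = 0.815), and the antagonist IL1RN had 6.32 ± 0.253 and 6.45 ± 0.617 CPM (0.025, adjusted p = 0.890). The decoy receptor IL1R2 had 0.505 ± 0.316 and 0.511 ± 0.264 CPM (-0.0034, adjusted p = 0.996). The last 3 changed sign under some alternatives.

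In the interleukin-1 family and its receptors, 9 of 18 genes were tested, 1 was higher and 3 were lower, with a median log2 fold change of -0.0034. The 18 genes summed to 191 to 198 CPM in control and 136 to 142 CPM in ELAPOR1 libraries. IL36RN, the interleukin-36 receptor antagonist, fell from 7.10 ± 0.237 to 4.04 ± 0.301 CPM (log2 fold change -0.81, standard error 0.133, edgeR adjusted p = 5.2e-06), and IL18R1, a subunit of the interleukin-18 receptor, rose from 1.36 ± 0.140 to 2.39 ± 0.657 CPM (0.81, standard error 0.256, adjusted p = 9.6e-03, and 0.0510 without ELAPOR1 replicate 2). Of 21 genes of interleukin-1 processing and signalling, 19 were tested, with 7 higher, 6 lower and a median of -0.032. Beside both lists, 44.7% of all tested genes were called, 22.6% higher and 22.1% lower. NLRP3, the sensor of an inflammasome, fell from 3.92 ± 0.704 to 2.48 ± 0.661 CPM (-0.66, standard error 0.201, edgeR adjusted p = 7.2e-03), and CASP4, an inflammatory caspase, fell from 73.0 ± 1.29 to 49.4 ± 1.76 CPM (-0.56, standard error 0.0452, adjusted p = 2.3e-12).

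In the interleukin-6 family with its receptors and signalling, 17 of 23 genes were tested, with 5 higher, 4 lower, and a median log2 fold change of 0.039. The shares over all tested genes were 22.6% higher and 22.1% lower. IL11RA, a receptor of interleukin-11, fell from 1.71 ± 0.491 to 0.925 ± 0.224 CPM (-0.88, standard error 0.302, edgeR adjusted p = 0.0169), a call lost under 6 of 18 alternatives, among them leaving out control replicate 1 or 3 or ELAPOR1 replicate 3 or 4 (adjusted p 0.0542 to 0.0684). IL27RA, a receptor of interleukin-27, was called higher (2.08 ± 0.339 to 3.03 ± 0.506 CPM, 0.55, adjusted p = 0.0319), a call lost under 10 of 18, among them leaving out control replicate 1, 2 or 3 or ELAPOR1 replicate 1, 3 or 4 (0.0509 to 0.133). Among 19 other cytokines and colony-stimulating factors, 10 were tested, with 1 higher, 4 lower and a median of -0.26. CSF2, the granulocyte-macrophage colony-stimulating factor, had 7, 2, 9 and 6 counts in control and 20, 13, 12 and 17 in ELAPOR1 libraries, a rise from 0.353 ± 0.174 to 0.984 ± 0.171 CPM (log2 fold change 1.47, standard error 0.409, edgeR adjusted p = 3.6e-03). It passed the filter only through its ELAPOR1 libraries, so its call, the 1 higher of this list, is given as a description. CSF1, the macrophage colony-stimulating factor, fell from 5.20 ± 0.348 to 3.03 ± 0.169 CPM (-0.78, standard error 0.156, adjusted p = 1.2e-04).

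Among transcription factors of the NF-kappaB and C/EBP families and their inhibitors, all 13 genes were tested, with 6 higher, 2 lower and a median log2 fold change of 0.18. For comparison, 22.6% of all tested genes were called higher and 22.1% lower. TNFAIP3, which encodes the NF-kappaB inhibitor A20 and is itself a known NF-kappaB target, rose from 6.59 ± 0.872 to 18.3 ± 0.725 CPM (1.47, standard error 0.0976, edgeR adjusted p = 2.2e-14) and stayed called under all 18 alternatives, as CXCL8 did. CEBPB, a factor known to act on the CXCL8 and IL6 promoters, fell from 20.6 ± 2.32 to 14.1 ± 1.96 CPM (-0.54, standard error 0.0937, adjusted p = 2.0e-05). Of 15 factors of cytokine mRNA decay and stability, all were tested, with 6 higher, 2 lower and a median of 0.083. KHSRP, which promotes the decay of such transcripts, rose from 289 ± 9.31 to 350 ± 4.98 CPM (0.27, standard error 0.0300, edgeR adjusted p = 2.5e-09), and RC3H1, which encodes roquin, rose from 39.4 ± 2.67 to 45.8 ± 1.68 CPM (0.22, standard error 0.0554, adjusted p = 1.5e-03).

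The genes that flank the cytokines were also measured. Of 9 neighbours of the CXC cluster on chromosome 4, 6 were tested and 4 called, all of them higher, and the median log2 fold change was 0.20. Beside these few genes, 44.7% of all tested genes were called and 22.6% were called higher. RASSF6 had 4.06 ± 1.26 and 5.46 ± 0.727 CPM (0.42, edgeR adjusted p = 0.0496, a call lost under 12 of 18 alternatives, among them leaving out control or ELAPOR1 replicate 2, 3 or 4, at 0.0809 to 0.182) and MTHFD2L had 9.14 ± 1.03 and 10.9 ± 0.804 CPM (0.26, adjusted p = 0.0413, lost under 8 of 18, among them leaving out control replicate 1 or 2 or ELAPOR1 replicate 1 or 3, at 0.0849 to 0.162). Of 8 neighbours of the interleukin-1 cluster on chromosome 2, 7 were tested and 5 called, all higher, with a median of 0.31, beside the same shares over all tested genes. POLR1B, a subunit of RNA polymerase I, rose from 62.7 ± 1.58 to 82.4 ± 3.07 CPM (0.39, standard error 0.0431, edgeR adjusted p = 2.8e-09), and PSD4 rose from 21.2 ± 1.54 to 27.1 ± 0.849 CPM (0.36, standard error 0.0686, adjusted p = 5.2e-05). The rise of CXCL8, at 1.94, was larger than that of any tested neighbour on chromosome 4, and the part of the neighbourhood in it was not tested.

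**Figure D5:**
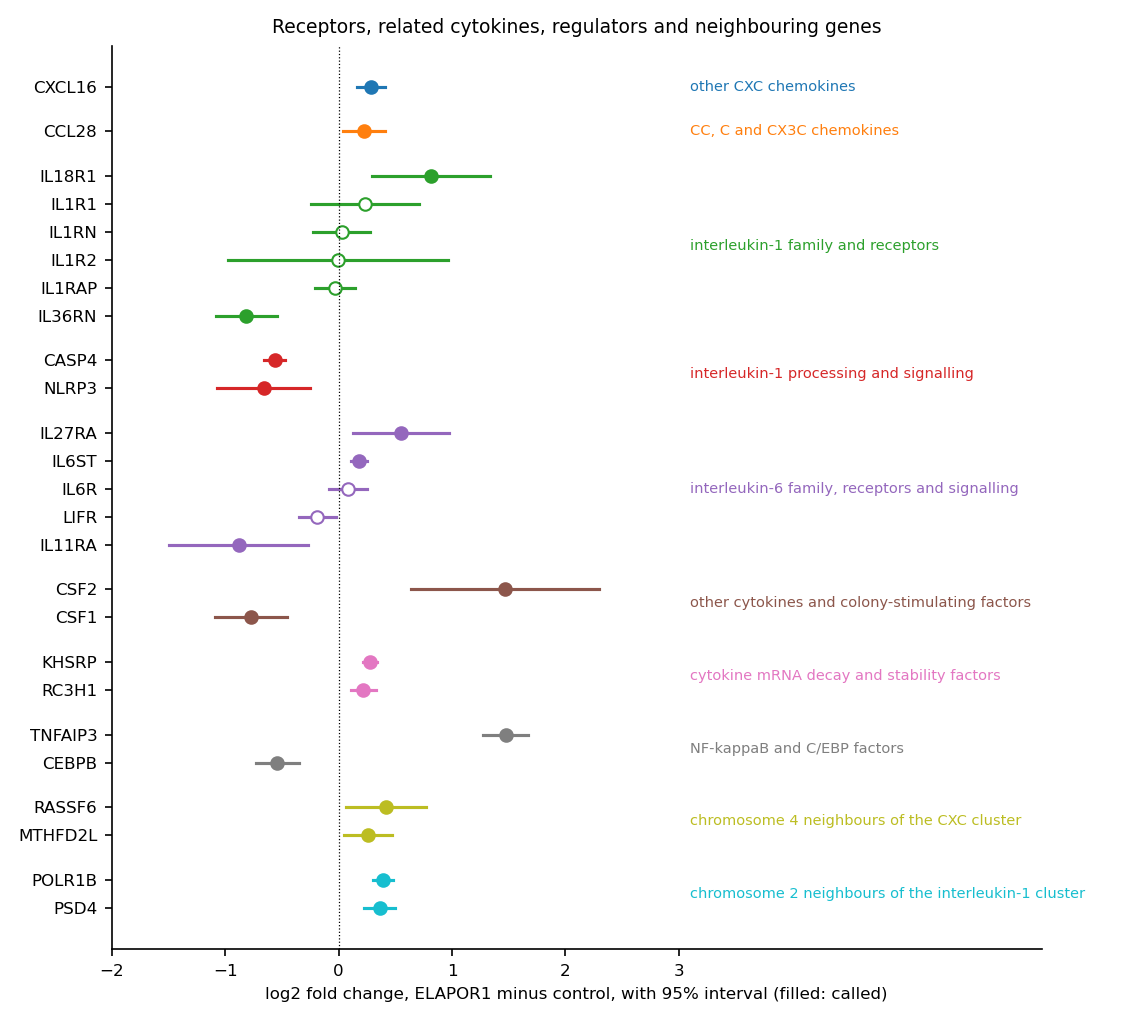
Log2 fold change, ELAPOR1 minus control, with its 95% interval for the named genes around the 10 cytokines, grouped by list and coloured alike within a list, with filled points for genes called in edgeR. TNFAIP3 and CSF2, both at 1.47, stand furthest to the right, and CSF2 passed the filter only through its ELAPOR1 libraries.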

How the data were processed

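Total RNA of 8 Panc 10.05 libraries was sequenced on an Illumina NextSeq, per the labels. The authors deposited a table of expected counts per gene as RSEM gives them, with no scaling between libraries. The submitters' processing notes name cutadapt, STAR, RSEM, DESeq2 and hg38, without versions or settings. Use of strand was not given in the sources used here, so reads of overlapping genes cannot be told apart. Of nonzero values 15.0% were not whole (tolerance 1e-06), but none of the 80 values of the 10 cytokine genes.

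Counts were rounded and tested with edgeR 4.0.16 (R 4.3.3): filterByExpr (10 counts at the median library size in 4 libraries), TMM, robust quasi-likelihood test, two-sided, no covariate, Benjamini-Hochberg adjustment over 13860 genes, called under 0.05. SE is the log2 fold change over the square root of F. Genes below the filter were compared by the ratio of summed CPM with an exact conditional (Clopper-Pearson) interval. The procedure was tested on simulated data in which far fewer genes changed than were called here, so that run does not cover a comparison with so many calls. The genes and lists were chosen with earlier results of these data known. Named genes are the 10, ELAPOR1, the receptors and the antagonist, the 2 called genes with the largest change in each list, and the 3 most like CXCL8. CXCL10 and CXCL11 were named after their values were seen. Alternatives were other scalings, DESeq2 1.42.0, limma-voom (3.58.1), other filters and thresholds, a replicate block, each library left out, and summed CXCL1, CXCL2 and CXCL3. Coordinates are from GENCODE release 29 on GRCh38, where several identifiers carry an older version number. Promoters are from RefSeq. A planned comparison of the CXC proteins was not analysed here. The values of 1 listed cell type marker are not reported here. Plots were drawn with matplotlib 3.10.9.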

Additional observations from a re-analysis of the deposited data

Results flagged for a closer look

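In 6 of 74 groups of 4 libraries, the highest or lowest library stood apart from the other 3 by more than Dixon's 95% critical value for groups of that size, and chance flags about 3.7 of 74. For CCL20, control replicate 4 had 0.0610 CPM, which is a single read, and the other controls had 0. For the decoy receptor IL1R2, control replicate 4 stood high at 0.975 CPM (others 0.295 to 0.388) and ELAPOR1 replicate 4 stood low at 0.115 CPM (others 0.614 to 0.665), and without either library the log2 fold change was 0.51 or 0.35 in place of -0.0034. For IL6R, control replicate 4 had 21.2 CPM and the others 17.0 to 17.6. For CASP4, control replicate 4 had 71.0 CPM and the others 73.4 to 73.7, and for POLR1B control replicate 1 had 65.0 CPM and the others 61.8 to 61.96. The groups of CASP4 and POLR1B did not overlap with these libraries included.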

How the results depend on the processing

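CXCL8 was called higher under all 18 alternatives (log2 fold change 1.77 to 2.19), and LIF under 17 of 18 (0.22 to 0.25). Tested against a 1.5-fold change, 215 genes were called (124 higher, 91 lower) in place of 6193, and 1 of the 10 cytokine genes, CXCL8. Leaving out each library in turn gave 5557 to 6316 genes called, 2 to 3 of the 10 (the third was CXCL5), and an ELAPOR1 log2 fold change of 11.15 to 11.75. Where each library had to hold at least 10 counts, ELAPOR1, CSF2 and IL1R2 gave no value. The replicate numbers did not pair the libraries: deviations of same-numbered libraries correlated at -0.038 to 0.020, others at -0.041 to 0.052. With the replicate block, 5926 genes and 2 of the 10 were called. IL1R2 changed sign with total count scaling (0.018), the DESeq2 Wald test (0.0046), no filter (0.00076) and the replicate block (0.011). With single libraries left out, signs turned for CXCL2 (-0.20 to 0.13), IL1R2 (-0.19 to 0.51), IL1RAP (-0.12 to 0.045) and IL1RN (-0.034 to 0.062), none of them called. The cause was not tested. Of 73 alternative values of the 4 tested cytokine genes 68 kept direction and call, as did 373 of 448 for the named other genes. Scalings moved the median of all genes to 0.022 at most. Depth limited CXCL1, CXCL3, CCL20, IL6, IL1A and IL1B, with 1 to 37 counts per group. CCL20 gave no ratio without control replicate 4.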

Other observations

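Below the filter, the CXCR3 ligands CXCL10 and CXCL11, known as interferon-induced chemokines that draw T cells, had more reads in ELAPOR1 libraries. They were singled out after their values were seen, so the adjusted p-values below describe them and are no test of a rise. CXCL11 had 4, 2, 2 and 4 counts in control and 11, 8, 19 and 10 in ELAPOR1 libraries, with no overlap in CPM. The ratio of its summed CPM was 4.35 (exact 95% interval 2.28 to 9.0, counting error only), and a fit with no filter on low counts gave an edgeR adjusted p of 1.6e-03. CXCL10 had 2, 0, 0 and 0 counts in control and 13, 5, 1 and 3 in ELAPOR1 libraries, a ratio of 12.0 (2.94 to 105), with an edgeR adjusted p of 7.4e-03 in that fit. Its groups overlapped in CPM, and 13 of its 22 ELAPOR1 counts came from replicate 1.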
